A study of Saccharomyces cerevisiae with 4 samples.

Results

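The cytosolic ribosomal protein genes of Saccharomyces cerevisiae are described here in mid2 mutant cells given zymolyase, a mix of enzymes that breaks down wall glucan. Mid2 is a sensor in the plasma membrane that acts in the cell wall integrity pathway. The members are the genes whose symbol starts with RPL or RPS followed by a digit, together with RPP0, RPP1A, RPP1B, RPP2A and RPP2B, that had a value on at least 3 of the 4 arrays. This rule gave 129 of the 137 such genes in the reference gene table, and 129 of the 4429 genes of the series with values on that many arrays. Of these, 77 encode proteins of the large subunit and 52 proteins of the small subunit. RPS30B had values on 3 arrays (0.40 on array 1, −1.56 on array 2 and −0.01 on array 4) and the other 128 on all 4. Outside the rule, RPS8A, RPL15A and RPL42B had values on arrays 3 and 4 only, RPS30A and RPS19A had none, and RPS14A, RPL29 and RPL36B matched no row of the table.

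The treated cells were mid2 mutants of the BY4741 background grown in YEPD (a rich medium) at 24 °C and given zymolyase at 0.8 units per ml, with collection at 3 h. The untreated cells were the other part of the same divided cultures, with the same genotype and background. There were 2 cultures by the labels and 4 two-colour arrays, as dye swaps. Treated RNA carried Cy5 on arrays 2 and 4, and Cy3 on the other two. Which arrays share a culture is not stated, one comment label of array 4 names a hog1 mutant for the untreated channel, and no cells with intact MID2 were analysed here. MID2 had no value on any array, so the mid2 genotype is unchecked. HOG1 read 0.20, 0.55, −0.15 and 0.26 on arrays 1 to 4, so array 4 lay within the range of the others.

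Ribosomal proteins assemble with ribosomal RNA into the small subunit, which decodes messenger RNA, and the large subunit, which joins amino acids. In yeast most of them are encoded by a pair of paralogs, called copy A and copy B, with very similar coding sequences. In growing yeast their transcription depends on Rap1, Fhl1, Ifh1 and Sfp1 and on nutrient signalling through TORC1 and protein kinase A, and these genes are well known for falling together in many acute stresses.

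Each value below is a deposited log2 ratio, taken as treated over untreated cells. The direction is called likely, because the sources used here do not state the numerator. It rests on 10 genes known to respond to zymolyase, chosen with earlier results of these data known. They were KDX1, CWP1, SED1, PIR3, NCW2, SLT2, PRM5, PST1, CRH1 and GSC2. Their medians were 1.65, 1.93, 2.35 and 1.93 on arrays 1 to 4, and 9 passed (limma) with a mean above 0. GSC2 did not pass and read 1.31, −1.57, 1.57 and 0.07. Errors are the SD over 4 arrays, which come from 2 cultures. Over the 3299 genes tested, array 2 lay lowest as a whole (median −0.37), beside −0.02, −0.04 and −0.07 for arrays 1, 3 and 4. Spot brightness is unknown, and the small number of arrays limits the precision.

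No ribosomal protein gene passed the test for a change after 3 h of zymolyase. The 128 members measured on all arrays had means between −0.53 and 0.47, and none reached a change of 2-fold, against 3.03% of all genes tested. Their median was −0.12, beside −0.14 for all genes tested. With limma and Benjamini-Hochberg adjustment over all genes, 0 of 128 members passed an adjusted p of 0.05, against 4.15% of all genes tested (2.76% risen and 1.39% fallen). At an unadjusted p under 0.05 the same test gave 0 members, against 10.8% of all genes, and the lowest adjusted p of a member was 0.472. A limma fit to the 4 arrays with a dye term, which treats dye swaps of 1 culture as separate samples, also passed 0 members, against 3.79% of all genes. At an unadjusted p under 0.05 that fit gave 2 members, RPL31B and RPS21A, against 16.1% of all genes.

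A missed threshold does not show that a gene was unchanged, and the intervals state what sizes remain possible. The 95% limma interval, taken as the wider of both ways of pairing arrays into cultures, lay within a 2-fold change in either direction for 125 of 128 members. The exceptions were RPL31B and RPS21A, whose lower bounds were −1.08 and −1.01, and RPL15B, whose upper bound was 1.01. Every member had the same standard error of 0.28, because limma drew it from the spread of all genes. A pass thus depended only on the size of a member's mean. The counts above and the spread of the means below are therefore not separate results. For genes whose arrays differ widely these intervals are too narrow, and for genes whose arrays lie close together they can be too wide. A limma fit to the 4 arrays without a dye term, which also treats dye swaps as separate samples, gave narrower intervals for both lowest members. They were −0.95 to −0.12 for RPL31B and −0.91 to −0.02 for RPS21A. These were the 2 members at an unadjusted p under 0.05 in that fit, against 12.9% of all genes. On simulated data with unequal spread among genes, more calls were false than the threshold states.

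The members spread less than other genes, with an SD of their means of 0.11 against 0.41 for all genes tested. This SD was 0.27 across genes that did not pass the threshold. It was 0.16 for mitochondrial ribosomal protein genes, 0.19 for initiation, 0.20 for elongation and ribosome-bound factors and 0.21 for ribosome biogenesis. Only RPL31B had a mean of at least 0.5 in size, which is 0.781% of members, against 13.0% of all genes. The single arrays did not place the members alike. Their medians were −0.26, −0.32, 0.13 and −0.07 on arrays 1 to 4, which is −0.23, 0.05, 0.18 and −0.00 relative to the medians of all genes tested. Below the array's median for all genes lay 97 of 128 members on array 1, 54 on array 2, 18 on array 3 and 65 on array 4. Arrays 1 and 3, which share a dye orientation, thus placed the members on opposite sides of the other genes.

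As deposited, 115 of 128 members had a mean below 0 (89.8%), beside 72.2% of all genes tested. With each array centred on its median, the median of all genes was −0.02 in place of −0.14, and 57 members (44.5%) then lay below 0, beside 53.1% of all genes. Below 0 on all 4 arrays were 11 members, against 17.1% of all genes, and 0 were above 0 on all 4, against 6.15%. Relative to the array medians, 3 members were lower on all 4 arrays (RPL20A, RPL31B and RPS21A) and 3 were higher (RPL27A, RPS0A and RPS1B), against 8.67% and 10% of all genes.

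**Figure D1:**
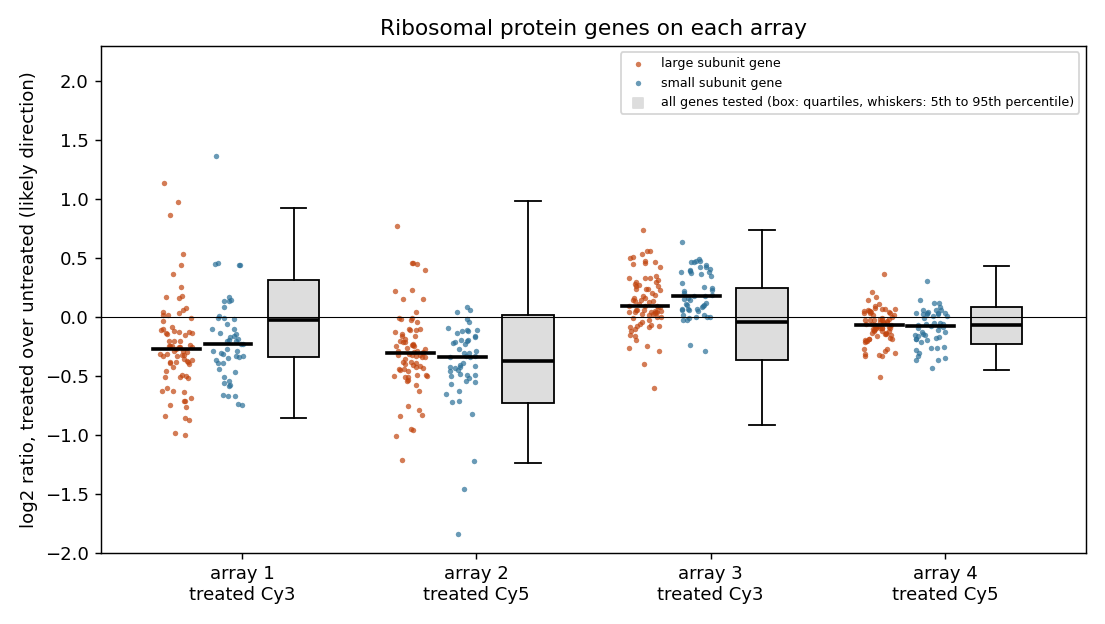
Log2 ratios of the 128 members on each array (vertical axis), with large subunit genes left, small subunit genes in the middle and all 3299 genes tested as a box on the right. Black lines are medians. Members lie mostly below the median of all genes on array 1 (median −0.26 against −0.02) and above it on array 3 (0.13 against −0.04).

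Large and small subunit genes had nearly the same values. The median of the member means was −0.13 for 77 large subunit genes and −0.11 for 51 small subunit genes. On arrays 1 to 4 the large subunit medians were −0.27, −0.31, 0.09 and −0.07, and the small subunit medians were −0.23, −0.34, 0.17 and −0.08. The differences, large minus small, were −0.04, 0.03, −0.08 and 0.01, with a mean of −0.02 ± 0.05 (SD over 4 arrays of 2 cultures). Their sign changed with the dye orientation, and the size of the mean was smaller than the SD over arrays. Genes with a single copy had a median of −0.09 (18 genes) and duplicated genes one of −0.12 (110 genes).

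Of the 10 lowest members, RPL31B encodes a protein next to the exit of the peptide tunnel. It read −0.49, −0.83, −0.61 and −0.21 on arrays 1 to 4, a mean of −0.53 ± 0.26 (SD over 4 arrays of 2 cultures), or 0.69-fold. RPS21A, for a protein of the small subunit, read −0.67, −0.82, −0.29 and −0.07, a mean of −0.47 ± 0.34. Both were below 0 on every array, and neither passed (limma, adjusted p = 0.472 and 0.628).

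RPL36A read −0.63, −0.63, −0.07 and −0.07 on arrays 1 to 4. RPL23A and RPL23B, which encode a protein at the face that meets the small subunit, averaged −0.34 ± 0.52 and −0.34 ± 0.30. RPL23A read −0.99, −0.33, 0.27 and −0.30 and RPL23B −0.71, −0.43, −0.01 and −0.19. Arrays 1 and 2 thus carried most of these low means, and array 3 lay near 0 or above it. On array 4 RPL36A lay near 0, but RPL23A was about as low (−0.30) as on array 2 (−0.33). The rest of the 10 lowest were RPL22A (−0.32 ± 0.43), RPL14A (−0.30 ± 0.39), RPS28B (−0.28 ± 0.33), RPS29A (−0.27 ± 0.31) and RPS28A (−0.26 ± 0.31). RPL22A, RPL14A, RPS28B and RPS28A were each above 0 on 1 array.

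The highest member was RPL15B, which encodes a core protein of the large subunit. It read 1.13, 0.77, 0.16 and −0.20 on arrays 1 to 4, a mean of 0.47 ± 0.60 or 1.38-fold, and did not pass (limma, adjusted p = 0.628). Arrays 1 and 2 were high and arrays 3 and 4 lay near 0, so its arrays disagreed in sign. Its copy RPL15A read −0.75 on array 3 and −0.16 on array 4, where RPL15B read 0.16 and −0.20, and had no value on arrays 1 and 2.

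The other 9 of the 10 highest members averaged only 0.02 to 0.08. RPL2B, for a protein close to the peptidyl transferase centre, read −0.32, 0.46, −0.19 and 0.37, with both values above 0 on the arrays with treated RNA in Cy5. RPL39, for a small protein of the exit tunnel, read 0.86, −0.84, 0.53 and −0.27, and RPL41A, for a very short basic protein between the subunits, read 0.98, −0.96, 0.74 and −0.51. Both were below 0 where treated RNA was in Cy5 and above 0 where it was in Cy3. RPS20 and RPL41B had the same order of signs, with SDs of 0.62 and 0.43. RPL27A, RPL11A, RPS1B and RPS0A completed the group. RPS0A, whose protein lies where messenger RNA leaves the small subunit, was the steadiest member as deposited, at 0.03 ± 0.07. With each array centred on its median it read 0.01, 0.45, 0.13 and 0.02, so its steadiness depended on the scaling.

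Members differed from each other most in the contrast between dye orientations. For each gene the half-difference between orientations is taken as the mean of arrays 2 and 4 (treated in Cy5) minus the mean of arrays 1 and 3 (treated in Cy3), divided by 2. Its SD across members was 0.21, against 0.11 for the mean over arrays, 0.11 for the half-difference of arrays 1 and 2 minus arrays 3 and 4, and 0.13 for that of arrays 1 and 4 minus arrays 2 and 3. The orientation thus held 49.8% of the variance across members and the mean over arrays 14.9%. These shares leave out what all members have in common. By the median size per member, the half-difference of arrays 1 and 2 minus arrays 3 and 4 was the largest (0.18), beside 0.12 for the dye orientation, 0.12 for the mean and 0.09 for arrays 1 and 4 minus arrays 2 and 3. Across all genes tested the order of the variance shares was the reverse, with 23% and 47.1%. Across genes that did not pass the threshold the shares were 33.5% and 31.9% (3162 genes), and across the mitochondrial ribosomal protein genes they were 50.1% and 17.5% (65 genes). The orientation share of the mitochondrial genes was thus as high.

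**Figure D2:**
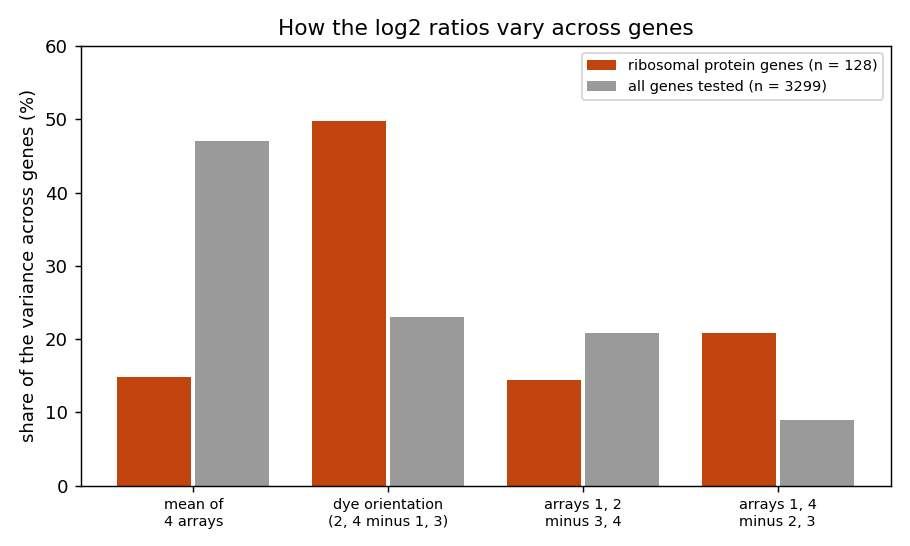
Share of the variance across genes (vertical axis, percent) held by the mean of 4 arrays and by 3 contrasts between pairs of arrays, for ribosomal protein genes and for all genes tested. The dye orientation holds 49.8% among the 128 members and 23% among all genes, and the mean 14.9% and 47.1%.

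The correlations between arrays were taken across genes that share these hybridisations and are not independent. They come from the same values as the shares above and describe the same contrast in another form. Among the 128 members Pearson's r lay between −0.425 and −0.357 for the 4 array pairs of opposite orientation, against 0.127 to 0.392 across all genes tested. For the 2 pairs of the same orientation it was 0.363 and 0.370, against 0.420 and 0.485. The range for opposite orientations was −0.406 to −0.333 without RPS10B and −0.324 to −0.155 over the 121 members with a half-difference under 0.5, both chosen after the values were seen. A member that read high in one orientation thus tended to read low in the other.

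In 7 members (5.47%) the size of the half-difference was 0.5 or more, against 8.46% of all genes. These 7 were named after their values were seen, and all were lower where treated RNA was in Cy5. Arrays were not centred here, and the median half-difference of all genes tested was −0.07. The count and the direction are thus relative to 0, not to other genes. RPS10B, for a protein of the small subunit's head, read 1.36, −1.84, 0.40 and −0.26 on arrays 1 to 4, a half-difference of −0.97 beside a mean of −0.09. RPL41A (−0.80), RPL39 (−0.63), RPS12 (−0.61), RPS20 (−0.52), RPS22B (−0.52) and RPL38 (−0.51) were the others. In the opposite direction the largest were RPL4A and RPL4B (0.40 and 0.38), for a protein that lines the exit tunnel, RPL1B (0.34) and RPL2B (0.33). RPL4A read −0.86, 0.45, −0.29 and −0.00, and RPL4B −1.0, 0.46, −0.06 and 0.01, so both copies had their lowest value on array 1 and their highest on array 2. The half-difference was larger in size than the mean for 64 of 128 members, beside 44.5% of all genes.

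**Figure D3:**
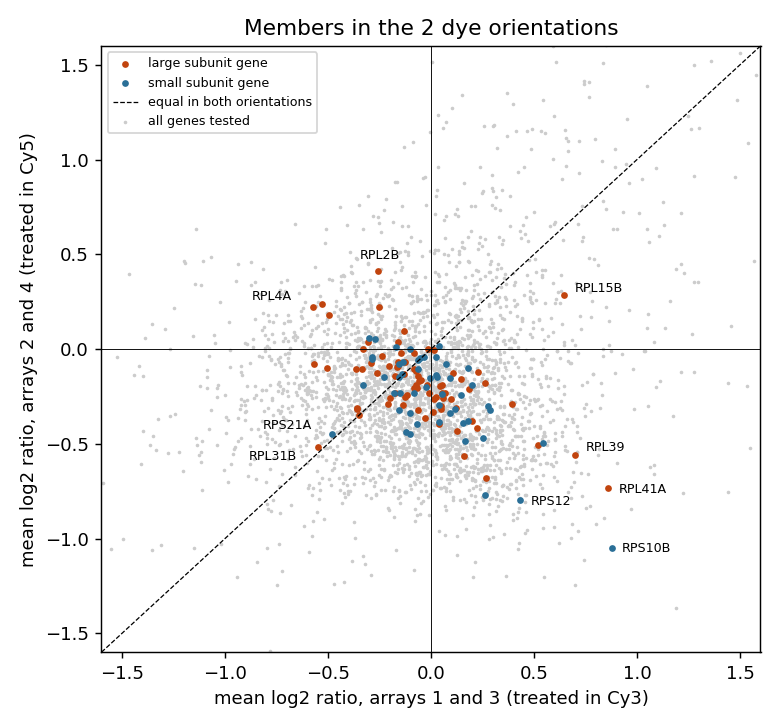
Mean log2 ratio of each gene on arrays 1 and 3 (treated RNA in Cy3, horizontal axis) and on arrays 2 and 4 (treated RNA in Cy5, vertical axis), within 1.6 of 0, with a dashed line where both agree. Members stretch across the dashed line, from RPL4A at upper left to RPS10B at lower right, and RPL31B and RPS21A lie near it below 0.

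Copies A and B were compared in 52 of the 59 duplicated families, namely those with both copies on all 4 arrays. Families were set by gene symbol. RPP1A with RPP1B and RPP2A with RPP2B, for the P1 and P2 proteins of the stalk, are therefore among them. Near-identical copies can bind the same spot, so these values may hold signal of both copies, and a small difference does not show that both genes responded alike. The median difference, A minus B, was −0.00, with copy A higher on average in 25 families and copy B in 27. The median size of the difference was 0.05, its range was −0.26 to 0.38, and the median SD over arrays was 0.22. In 5 families the difference was larger than its SD over arrays. Over all copies measured, the median was −0.12 for 54 A copies and −0.13 for 56 B copies. With 4 arrays an exact test of a single family could not reach the threshold, so none was run.

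The largest differences were those of RPL31 and RPS29. RPL31A minus RPL31B was 0.19, 0.30, 1.16 and −0.13 on arrays 1 to 4 (0.38 ± 0.55), with array 3 far above the others and a mean of 0.12 without it. RPS29A minus RPS29B, copies of a zinc-binding protein of the small subunit's head, was −0.65, −0.20, −0.11 and −0.10 (−0.26 ± 0.26). The difference for RPS29 was below 0 on each array, but without array 1 the mean was −0.14.

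RPS21A minus RPS21B was −0.31, −0.34, −0.30 and −0.10 (−0.26 ± 0.11), so copy A read lower on all 4 arrays, and the mean difference was larger in size than its SD. RPL20A minus RPL20B was 0.05, −0.26, −0.44 and −0.32 (−0.24 ± 0.21), lower on 3 arrays. In the others among the 8 largest, the SD over arrays was larger than the size of the mean difference. RPS22A minus RPS22B was −0.23, 1.04, −0.19 and 0.03 (0.16 ± 0.60), and its mean was −0.13 without array 2. RPL27A minus RPL27B was 0.59, −0.10, 0.12 and −0.00 (0.15 ± 0.30), and its mean was 0.01 without array 1. RPL8 averaged 0.15 ± 0.23, and 0.26 without array 4. RPL22 averaged −0.15 ± 0.54, but 0.01 without array 1 and 0.00 without array 3. RPL22A minus RPL22B was −0.62, 0.43, −0.59 and 0.20 on arrays 1 to 4, so its sign followed the dye orientation.

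The difference kept its sign on all 4 arrays in 4 of 52 families, a count from which nothing is read. Besides RPS29 and RPS21 these were RPL37 (0.10 ± 0.09) and RPS24 (0.08 ± 0.02), named after their values were seen, with copy A higher in both. RPS24A minus RPS24B was 0.10, 0.09, 0.06 and 0.05. The 4 families with the smallest differences were RPL23, RPL12, RPS9 and RPL7, all at most 0.01 in size. RPL12A and RPL12B also agreed on single arrays, with differences of −0.09, 0.07, 0.00 and 0.02.

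Paralogs resembled each other in what varied among the members. Across the 52 families, Pearson's r between copy A and copy B was 0.442 for the mean over arrays and 0.512 for the half-difference between dye orientations. It was 0.355 for the half-difference of arrays 1 and 2 minus 3 and 4, and 0.516 for that of arrays 1 and 4 minus 2 and 3. These are descriptions over families on the same 4 arrays, and the copies can share signal. In RPS10 the copies differed widely on single arrays, by −0.93 on array 1 and 1.21 on array 2, beside a mean of −0.02.

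**Figure D4:**
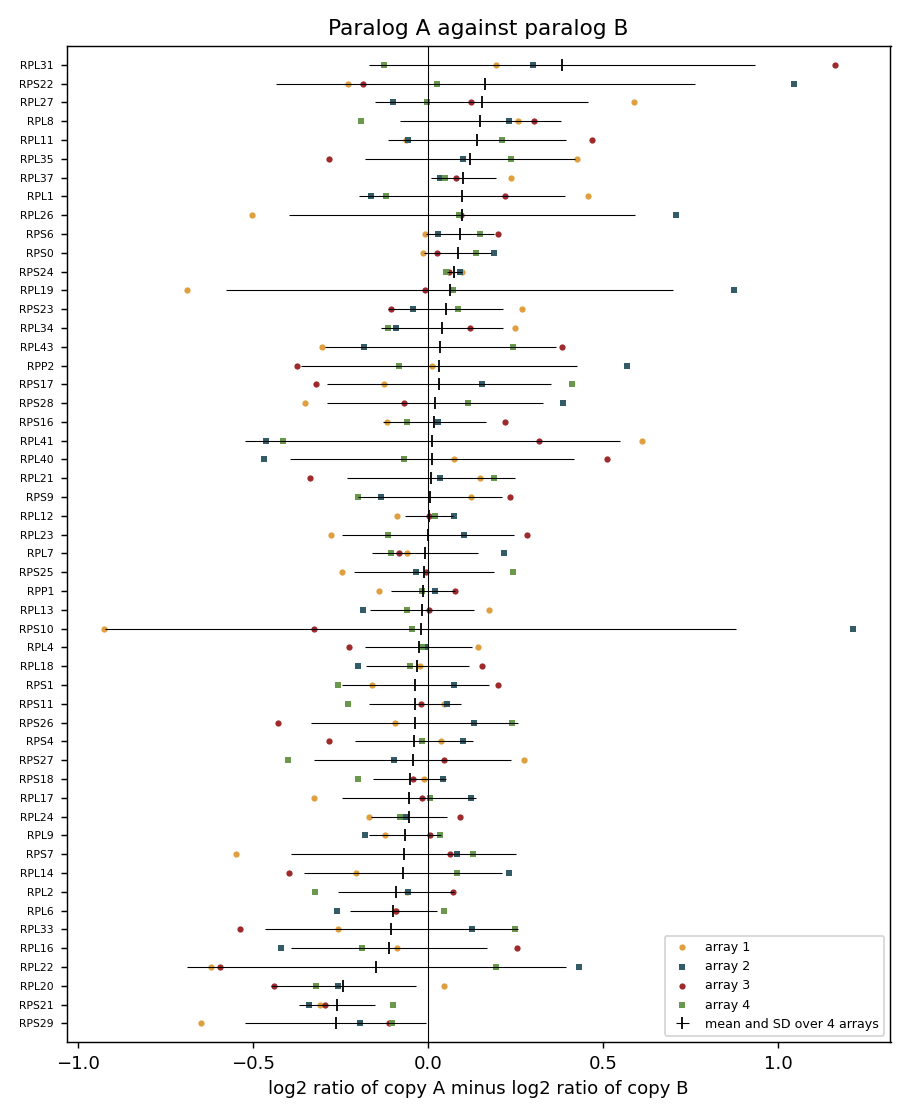
Log2 ratio of copy A minus that of copy B for each of 52 families (horizontal axis), by array, with the mean and the SD over 4 arrays as a black tick and line. Most means lie close to 0 (median size 0.05), and RPS21 and RPS24 are among the few whose 4 arrays lie on 1 side of 0.

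By position and role in the ribosome, none of the groups held a gene that passed. In the stalk, which binds the translation factors that use GTP, the base protein gene RPP0 read −0.50, −0.10, −0.09 and −0.04 on arrays 1 to 4 (−0.18 ± 0.21). RPP1A and RPP1B, for the P1 proteins, averaged −0.23 ± 0.36 and −0.22 ± 0.27, and RPP2A and RPP2B, for the P2 proteins, −0.05 ± 0.21 and −0.08 ± 0.27. RPL12A and RPL12B, whose protein lies at the foot of the stalk, averaged −0.10 ± 0.07 and −0.10 ± 0.11. All 7 stalk means were below 0 as deposited, like 89.8% of members and 72.2% of all genes, and RPP0, RPP1A and RPP1B were lowest on array 1. With arrays centred, 4 of the 7 were above 0, at 0.07 for RPP2A, 0.04 for RPP2B, 0.02 for RPL12A and 0.02 for RPL12B, so the common sign depended on the scaling.

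The genes whose product is made as a fusion with ubiquitin averaged −0.11 ± 0.48 (RPS31), −0.12 ± 0.18 (RPL40A) and −0.13 ± 0.23 (RPL40B). RPS31 read −0.75, −0.20, 0.21 and 0.30, so arrays 1 and 2 lay below 0 and arrays 3 and 4 above it. In the particle that holds 5S ribosomal RNA, RPL5 averaged −0.01 ± 0.24, RPL11A 0.04 ± 0.38 and RPL11B −0.10 ± 0.20. The 14 exit tunnel genes had a median of −0.15, with RPL31B lowest, followed by RPL19B (−0.21 ± 0.72) and RPL26B (−0.20 ± 0.55). RPL19B read 0.44, −1.22, 0.09 and −0.14, so it was low on array 2 only.

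At the entry and decoding sites of the small subunit, RPS3, RPS2 and RPS23B averaged −0.16 ± 0.40, −0.12 ± 0.31 and −0.10 ± 0.36. At the exit and platform, RPS28B, RPS28A and RPS14B were lowest, the last at −0.16 ± 0.34, and the 9 genes measured there had a median of −0.05. Among genes whose protein is known to act on a transcript of the same family, 6 were measured, with a median of −0.22, and none passed. Their medians were −0.49, −0.33, 0.08 and −0.04 on arrays 1 to 4. RPL22A read −0.88, −0.33, −0.26 and 0.17 on arrays 1 to 4, and RPL22B −0.26, −0.76, 0.33 and −0.03. RPL22A was thus above 0 on array 4 only, and RPL22B on array 3 only.

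Genes that act on ribosomal protein genes, on ribosomal proteins or on the ribosome were read from the same fit. Of the 14 regulators measured none passed (limma), with a median of −0.16. KOG1, which encodes a subunit of TORC1, averaged −0.49 ± 0.40, and FHL1, for the factor that recruits Ifh1, −0.47 ± 0.52. FHL1 read 0.03, −1.20, −0.40 and −0.29, so array 2 lay far below the others. Of 13 chaperone genes none passed, with a median of −0.11, and the lowest were SYO1 (−0.43 ± 0.19), whose product brings Rpl5 and Rpl11 into the nucleus together, and BCP1 (−0.37 ± 0.51).

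No translation factor gene passed either (limma). The 14 genes for elongation and ribosome-bound factors had a median of 0.15, beside −0.12 for the ribosomal protein genes and −0.14 for all genes tested. Their medians were 0.14, 0.42, 0.03 and −0.03 on arrays 1 to 4, so arrays 1 and 2 carried most of it. EFT2, for elongation factor 2, averaged 0.38 ± 0.60 and YEF3, for elongation factor 3, 0.37 ± 0.48. EFT2 read 0.42, 1.22, −0.06 and −0.04 and YEF3 0.83, 0.69, 0.15 and −0.20, both higher on arrays 1 and 2. TEF1 and TEF2, near-identical genes for elongation factor 1A, averaged 0.27 ± 0.19 and 0.29 ± 0.33. With CAM1 and HYP2 they were the 4 genes of the list above 0 on every array, against 6.15% of all genes, and were named after their values were seen. The 18 initiation factor genes had a median of −0.05, and the largest means were those of RPG1 (0.53 ± 0.98) and TIF11 (0.22 ± 1.05), whose arrays disagreed in sign.

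The other ribosome-related lists also held no gene that passed. The 33 ribosome biogenesis genes (UTP, NOP and RRP) had a median of −0.12, and RRP43 (−0.59 ± 0.29) and RRP45 (−0.54 ± 0.21), both for subunits of the RNA exosome, were lowest. The 65 mitochondrial ribosomal protein genes had a median of −0.23, with MRPL8 (−0.70 ± 0.48) and MNP1 (−0.54 ± 0.36) lowest. On array 2 the ribosome biogenesis median was −0.70 and the mitochondrial one −0.56, against −0.32 for the cytosolic ribosomal protein genes and −0.37 for all genes tested. On array 1 the order differed, with medians of 0.23, −0.19 and −0.26 for biogenesis, mitochondrial and cytosolic ribosomal protein genes.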

How the data were processed

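The deposited table holds 1 value per open reading frame (ORF) and array, per the file headers and the labels for 4 two-colour arrays of zymolyase-treated against untreated mid2 cells. Each deposited value was read as a log2 ratio between channels. The sources used here do not give the log base, the authors' normalization or the channel on top. No scanner intensity was used. Of 6209 rows, 2 control rows were left out. Rows were matched to the RefSeq gene table of assembly R64, for names only (5654 by locus tag, 57 by a synonym of a single gene, 496 unmatched, which kept their name), and rows of 1 gene were averaged, which left 6172 genes. Of the members, 2 were matched by a synonym, and none had several rows. Blank rows made up 24.2%, 42.2%, 22.8% and 20.0% on arrays 1 to 4.

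Genes measured on 4 of 4 arrays (3299) were tested with limma 3.58.1 in R 4.3.3. Arrays of 1 culture (a dye swap) were averaged, and lmFit and eBayes compared the mean of both cultures with 0. The labels do not pair arrays with cultures, so the fit was made for each possible pairing. A call needed a Benjamini-Hochberg adjusted p under 0.05 in each, and the larger p is given. In practice the pairing of arrays 1 with 2 set the counts, because alone it also gave 137 genes called. With its unlimited prior, every gene had the same standard error in that pairing, so a call depended only on the size of the mean. The prior degrees of freedom were unlimited with arrays 1 and 2 paired and 12.7 with arrays 1 and 4 paired. Nothing shows whether the 2 cultures were started separately, so p-values rest on the spread between these arrays. For the members this spread was drawn from all genes, with the same standard error of 0.28 for each, and not from each gene's own arrays. The procedure was tested on simulated data. With equal spread for all genes, its share of false calls stayed near the threshold. With the unequal spread of the real genes, it exceeded the threshold, so the counts of all genes called may hold more false calls than it states. Members, lists and tests were chosen with earlier results of these data known. Named genes are the 10 highest and 10 lowest members by mean, the 8 families with the largest and the 4 with the smallest paralog difference, all stalk and ubiquitin fusion genes, and up to 3 genes of each other role list. Of each other list the rule names any gene past the threshold and the 2 with the largest change. The sequence comparisons and motif counts that had been planned were not made.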

Additional observations from a re-analysis of the deposited data

Results flagged for a closer look

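Dixon's test for 4 samples asked whether 1 array stood apart from the other 3 in 53 named genes, 12 paralog differences and 4 group medians. It did in 5 of these 69 sets. Chance flags about 5% of sets of independent samples, or 3.45 of 69, but these arrays are dye swaps of 2 cultures and the sets overlap. Array 1 was lowest in 3 genes, at −0.50 for RPP0, −0.63 for RPP1B and −0.58 for RPS2. RPP0 read −0.10, −0.09 and −0.04 on arrays 2 to 4, RPP1B −0.13, −0.04 and −0.08, and RPS2 0.06, −0.02 and 0.06. The difference RPL8A minus RPL8B was −0.19 on array 4 and 0.26, 0.23 and 0.30 on arrays 1 to 3. The difference RPL7A minus RPL7B was 0.22 on array 2, and −0.06, −0.08 and −0.11 on arrays 1, 3 and 4.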

How the results depend on the processing

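No ribosomal protein gene passed in any of the 15 alternatives run, with 0 to 4 at an unadjusted limma p under 0.05. The 4 were RPL15B, RPL31B, RPL36A and RPS21A, with arrays 1 and 4 as the only pairing, where 23.8% of all genes had such a p and the lowest adjusted p of a member was 0.0649. RPL31B and RPS21A also had such a p in the 4-array fits with and without a dye term (16.1% and 12.9% of all genes). The same held with at least 3 arrays (12.9%) and, together with RPL15B, with the robust prior (13.4%). The alternative with arrays 1 and 2 as the only pairing gave the same counts as the main fit. The count of all genes past the threshold (137, 91 risen and 46 fallen) did depend on the setting. It was 306 (156 and 150) with arrays 1 and 4 as the only pairing, 65 (53 and 12) with 4 arrays and no dye term, and 2 (2 and 0) with arrays centred and scaled, where 12% of genes had an unadjusted limma p under 0.05. Calls of fallen genes came to 28 with arrays centred (87 risen), to 28 and 72 at thresholds of 0.01 and 0.1, and to 74 with eBayes in its robust form. With 1 array dropped, the calls ranged over 5 to 101 (risen genes 4 to 83, fallen genes 1 to 25), namely 47 without array 1, 73 without array 2, 101 without array 3 and 5 without array 4. The cause was not tested.

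The median of the ribosomal protein genes, −0.12, was 0.01 with arrays centred and −0.20 to −0.06 with single arrays left out. Its difference from the median of all genes, 0.03, lay between −0.02 and 0.08, so its sign depended on the array left out. The large minus small subunit difference, −0.02, stayed between −0.06 and −0.01 without single arrays. The median size of the paralog difference, 0.05, was 0.0668 to 0.0980 with single arrays left out, highest without array 2. Of 689 values of named members under alternatives, 5 moved by more than the SD over arrays, all from centring the arrays, with or without scaling (RPS0A, RPL12A and RPL12B). No paired analysis was possible because the replicate numbers link no groups, all 4 arrays being ratios of 1 kind (both ways of joining arrays into cultures were fitted, as given above). The 4 arrays, the unstated pairing with cultures and the unknown brightness limit every statement.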
